A study of Mus musculus with 9 samples.

Results

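The 40 genes described here are cell cycle and DNA replication genes of mouse epidermis. They were taken by name from the 38203 genes of the deposited table, with earlier results of these data known but by a rule that uses no measured value, and all 40 were found once each. RNA was sequenced from the epidermis of single E18.5 embryos, in 9 libraries of 4 genotypes of the epithelial splicing regulators Esrp1 and Esrp2. WT (2 libraries) carried both genes, KO (3 libraries) lacked Esrp1 only, KH (2 libraries) lacked Esrp1 and was heterozygous for Esrp2, and DKO (2 libraries) lacked both. The Esrp1 allele lacks internal exons and was made with Zp3-Cre, which acts in the oocyte, and the Esrp2 allele replaces the gene with a LacZ and neo cassette. Both are therefore germline alleles present in every tissue, in mice of mixed C57BL6 and 129Sv background, and the genotypes came from different crosses. The labels call the controls wild type for both genes, whereas the extraction text gives them as Esrp2-/-. The cell layer was separated from trunk skin with cold trypsin, with head, limbs and tail removed first.

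Values are FPKM, a fragment count that is scaled by transcript length and by how many fragments were mapped, so they can be compared between genes. Esrp2 was at 118 and 136 FPKM in WT and at 0.0843 and 0.0463 FPKM in DKO, which matches the label WT rather than the extraction text. Esrp1 was at 119 and 142 FPKM in WT and between 18.2 and 55.1 FPKM in the 7 mutant libraries, and the exons that remain in the allele can still be counted. Esrp1 and Esrp2 together summed to 56.7 FPKM in KH replicate 1 and 144.6 in KH replicate 2. In KO replicates 1, 2 and 3 the sums were 117.8, 117.1 and 158.2 FPKM, so only KH replicate 1 lay below all of KO. The summed FPKM ranged from 713318 in KH replicate 1 to 1130713 in KO replicate 2, and 11851 to 12228 genes reached 1 FPKM. The basal keratins Krt5 and Krt14 were at 1676 to 3896 and 1722 to 3692 FPKM, and the 5 endothelial and 5 skeletal muscle markers stayed under 1 FPKM in every library. The table gives no read counts, so the number of reads behind a value cannot be taken from it, and the read totals that the study states were not used here.

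In stratified epidermis the cells that divide sit in the basal layer on the basement membrane and in the growing hair follicle, and cells that move up into the spinous, granular and cornified layers leave the cell cycle. Before S phase, Cdc6 and Cdt1 load the Mcm2-7 ring onto replication origins, and D-type and E-type cyclins with Cdk4 and Cdk2 release E2F factors from the retinoblastoma protein. Cyclin A and cyclin B with Cdk1 then carry the cell through G2 into mitosis, where the Aurora and Polo-like kinases, the spindle checkpoint and kinesin motors act. Genes of the first wave are known targets of E2F factors. Genes of the second wave are known to carry CCAAT boxes and a cell cycle homology region, abbreviated CHR, in their promoters. The Cip/Kip proteins Cdkn1a, Cdkn1b and Cdkn1c bind and inhibit the cyclin-dependent kinases.

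The promoters of 32 of the 40 genes were found in RefSeq (build GRCm38.p6), as 300 bases that run from 250 bases before the transcription start to 50 bases after it, with the first listed used where a gene had several. Those of Mcm4, Ccnd1, Ccnd2, Ccna2, Aurkb, Kif20a, Foxm1 and Cdkn1c were not used here. They were searched on both strands for E2F-type sites (TTTCCCGC, TTTCGCGC, TTTGCCGC or TTTGGCGC), for the CHR (TTTGAA or TTCGAA) and for CCAAT, none of which contains another. An E2F-type match was present in 6 of the 7 promoters of the licensing and helicase genes and in 8 of the 32 in all, against 2.32% of all 27025 promoters. A CHR match was present in 5 of the 5 promoters of the chromosome and spindle genes, in 5 of the 6 of the mitotic kinases, checkpoint and passenger genes, and in 14 of the 32 in all, against 19.4% of all promoters. CCAAT was present in 23 of the 32, against 37.9% of all promoters. It was in 5 of the 7 licensing and helicase promoters and 3 of the 4 of the replication fork and nucleotides. Of the mitotic kinases, checkpoint and passenger genes 5 of the 6 held it, and of the chromosome and spindle genes 5 of the 5. The windows below lie wholly before the start and show the matches in capitals, for Mcm5 and Mcm6 the E2F-type sites, for Cdk1, Cdc20 and Top2a CHR and CCAAT matches, and for Ccnb2 CCAAT matches. The CHR matches of Ccnb2 lie outside the window shown, and a CCAAT match of Mcm6 inside its window is left in lower case. The windows are shown because E2F-type and CHR matches fell mostly in different role groups, with Mcm7 and Cdk1 holding both. In Mcm5 and Mcm6 a pair of E2F-type matches on opposite strands overlap in 1 run of 12 capitals.
Mcm5 (chr8:75109329-75109408, plus strand): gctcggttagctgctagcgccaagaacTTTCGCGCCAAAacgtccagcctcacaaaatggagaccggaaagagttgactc
Mcm6 (chr1:128359736-128359825, minus strand): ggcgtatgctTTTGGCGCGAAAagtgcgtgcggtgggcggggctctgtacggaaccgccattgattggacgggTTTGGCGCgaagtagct
Cdk1 (chr10:69352943-69353022, minus strand): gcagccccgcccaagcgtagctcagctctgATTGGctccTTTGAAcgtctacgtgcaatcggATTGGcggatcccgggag
Ccnb2 (chr9:70421555-70421654, minus strand): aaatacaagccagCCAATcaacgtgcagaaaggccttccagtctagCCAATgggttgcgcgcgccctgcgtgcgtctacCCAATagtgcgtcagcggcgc
Cdc20 (chr4:118437354-118437433, minus strand): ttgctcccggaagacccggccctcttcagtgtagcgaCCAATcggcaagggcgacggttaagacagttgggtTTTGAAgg
Top2a (chr11:99024190-99024299, minus strand): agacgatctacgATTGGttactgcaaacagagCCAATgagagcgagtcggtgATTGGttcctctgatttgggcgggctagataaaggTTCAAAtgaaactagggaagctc
A match is a description of the letters and was not tested for binding.

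All 40 genes were expressed at 1 FPKM or more in every library, so no gene was lost to the filter on low values. In WT the averages ran from 2.36 FPKM for Mybl2 to 279 FPKM for Cdkn1a, with Cdk4 at 245 FPKM and a median of 13.5 FPKM over the 37 genes other than the inhibitors. The 37 genes averaged higher in DKO than in WT in 37 cases, in KO in 36 and in KH in 37, by a median ratio of 1.56, 1.51 and 1.42. In no comparison did a gene of the 40 pass the test, limma at an adjusted p below 0.05 together with a ratio of average FPKM of over 2 in either direction.

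**Figure D1:**
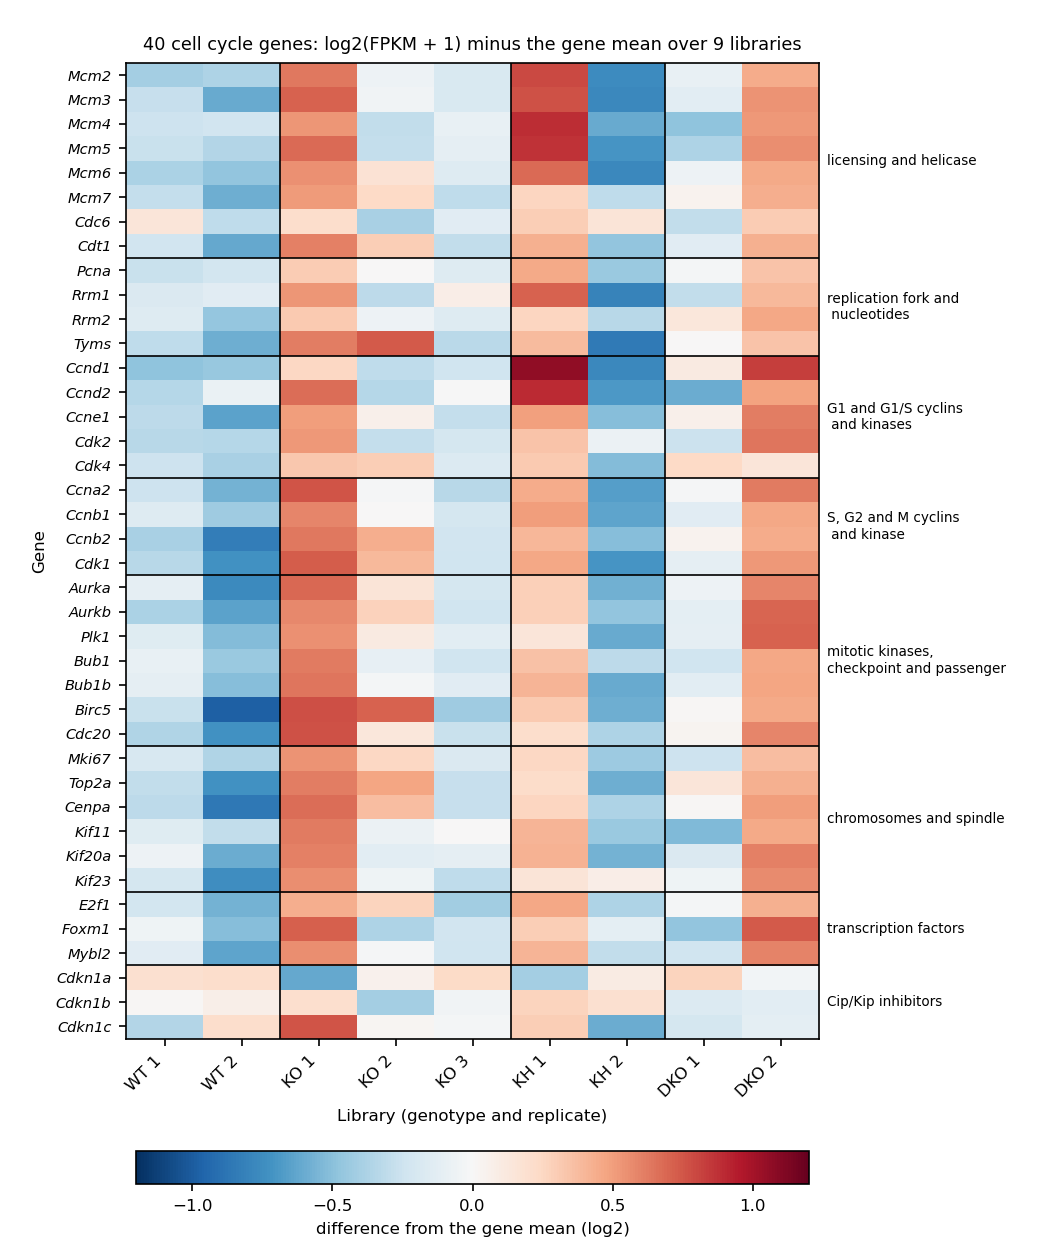
Each cell gives log2(FPKM + 1) of 1 of the 40 genes in 1 of the 9 libraries, minus the mean of that gene over the libraries, with genes in role groups and libraries ordered by genotype. The columns KO 1, KH 1 and DKO 2 are red in nearly all of the 37 genes above the inhibitors, and KH 2 and WT 2 are mostly blue.

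In DKO against WT, 0 of the 40 were called, while 123 of the 16897 genes tested were (0.728%). An unadjusted p below 0.05 was reached by 2 of the 40, Cdc20 and Cenpa, both higher in DKO, against 6.15% of all genes in that direction. The DKO and WT libraries did not overlap in 26 of the 40, with DKO higher in 25 and lower in 1, whereas 27.8% of all genes were higher and 26.4% lower without overlap. The median log2 difference of the 40 was 0.57, beside 0.02 over all genes tested, and 37 of the 40 were above 0 (52.4% of all genes). It was 0.29 without DKO replicate 2 and 0.87 without DKO replicate 1.

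In KO against WT, 0 of the 40 were called (0.0296% of all genes were), and 3 reached an unadjusted p below 0.05, Ccnb2, Cenpa and Top2a, all higher in KO, against 2.25% of all genes in that direction. The libraries did not overlap in 17 of the 40, all higher in KO, against 12.6% of all genes higher and 12.1% lower. The median log2 difference was 0.48, beside 0.00 over all genes, with 37 of the 40 above 0 (49.5% of all genes), and was 0.26 without KO replicate 1.

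KH against WT gave 0 calls among the 40 (0.0296% of all genes) and 0 at an unadjusted p below 0.05, which 3.72% of all genes reached. The libraries were apart in 4 genes that were higher in KH, Cdc6, Cdk2, Kif23 and Cdkn1b (15.3% of all genes), and in 1 that was lower, Cdkn1a (16.6%). KH replicate 2 was the lowest of the 9 libraries for 17 of the 40. The median log2 difference was 0.35, with 38 of the 40 above 0 (49.7% of all genes), and it changed sign with 1 library, from -0.15 without KH replicate 1 to 0.77 without KH replicate 2. The 3 comparisons share the WT libraries and are not independent of each other.

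Between mutant genotypes the 40 genes gave 0 calls and 0 unadjusted p below 0.05 by limma. Of all genes, 0.639% were called and 6.8% reached that p in DKO against KO, 0.426% and 5.71% in DKO against KH, and 0% and 1.09% in KH against KO. The median log2 differences of the 40 in these comparisons were 0.04, 0.24 and -0.18, and each changed sign with 1 library. For DKO against KO it came to -0.27 if DKO replicate 2 was left out and to -0.13 if KO replicate 3 was, and it stood at 0.33 if DKO replicate 1 was. Leaving out KH replicate 2 gave -0.22 for DKO against KH, DKO replicate 2 gave -0.05, and KH replicate 1 gave 0.69. For KH against KO, omitting KH replicate 1 gave -0.68, KO replicate 1 gave 0.04 and KH replicate 2 gave 0.25.

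**Figure D2:**
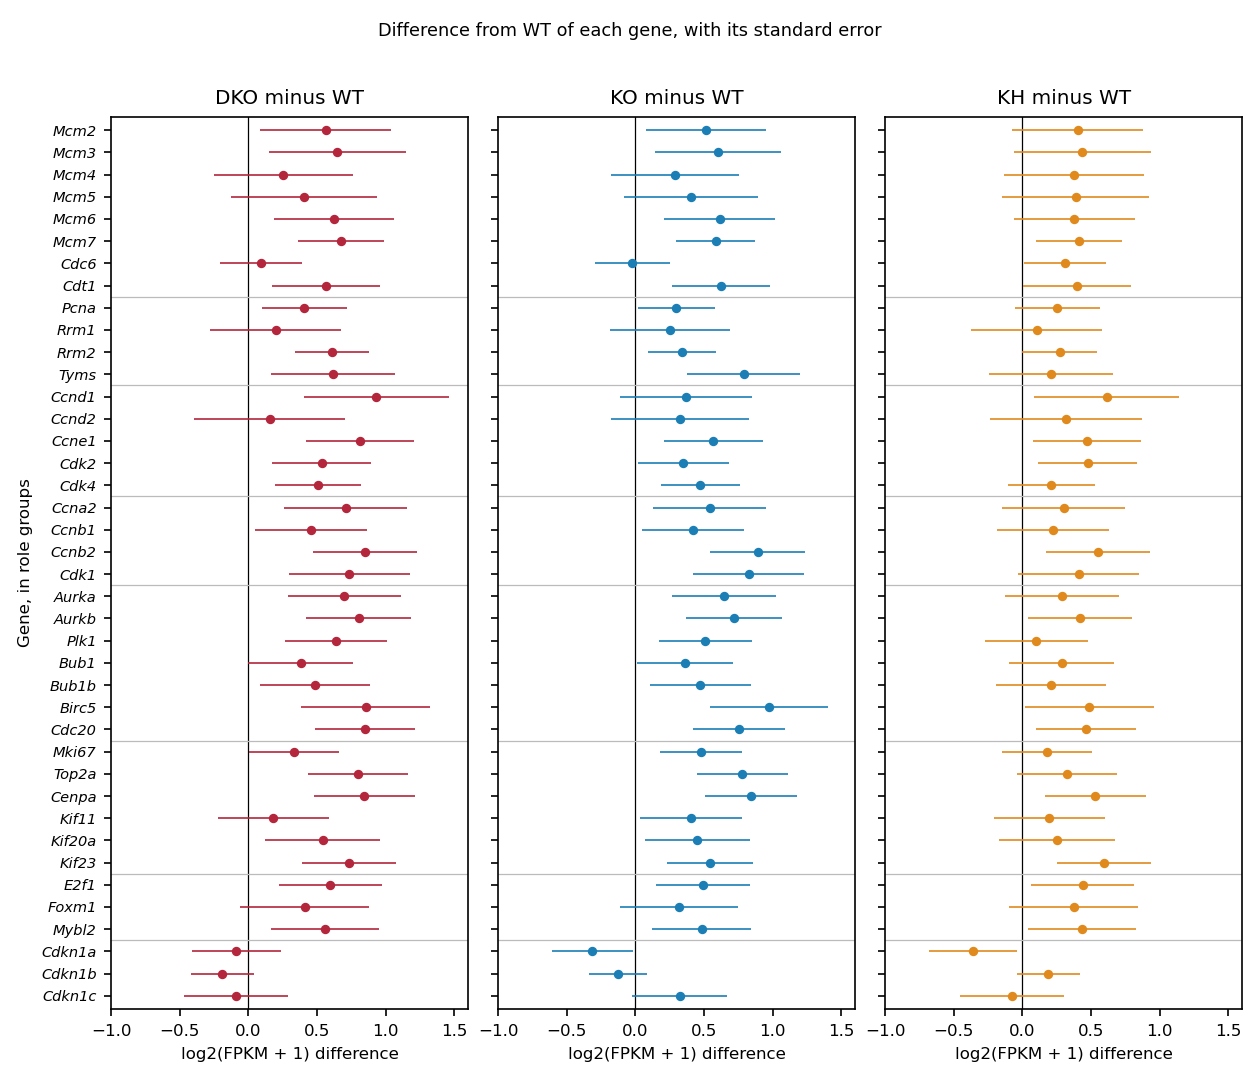
Points give the log2(FPKM + 1) difference of each of the 40 genes from WT in DKO, KO and KH, and bars the standard error from limma. Of the 37 genes above the inhibitors, all lie right of 0 in DKO and KH and 36 in KO, and the standard errors in DKO run from 0.27 to 0.55.

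Among the 8 licensing and helicase genes, Mcm6, a subunit of the replicative helicase ring, had the highest level. It was at 26.1 and 24.3 FPKM in WT, at 50.4, 38.5 and 30.5 in KO, at 55.2 and 19.6 in KH, and at 32.7 and 47.2 in DKO. All KO and DKO libraries were above WT, and the KH pair stood on both sides of it. The log2 difference between DKO and WT was 0.62 ± 0.44 (SE), with an adjusted p of 0.545 in limma. Mcm7, another subunit of the ring, had the smallest p of the group in DKO against WT. It stood at 25.02 and 20.04 FPKM in WT, at 44.1, 36.3 and 24.6 in KO, at 36.9 and 24.6 in KH and at 31.6 and 41.8 in DKO, a log2 difference of 0.67 ± 0.31 (SE) for DKO, with an adjusted p of 0.39. Mcm7 overlaps Cops6, Taf6 and Ap4m1 in its entry, so its value is less certain. Mcm2, Mcm3, Mcm4 and Mcm5 had WT averages between 13.1 and 15.5 FPKM, and Cdt1, which brings the ring to origins, one of 7.70. Cdc6, the other loading factor, had the smallest ratios of averages of the group in DKO and KO, 1.09 and 0.98. In KH its ratio was 1.28, and both KH libraries were above WT.

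The 4 genes of the replication fork and of nucleotide supply averaged higher in all mutants. Pcna, the sliding clamp of the DNA polymerases, was at 63.3 and 65.5 FPKM in WT, at 95.1, 76.7 and 68.8 in KO, at 106 and 56.1 in KH and at 75.3 and 97.5 in DKO. The log2 difference for DKO was 0.41 ± 0.31 (SE), with an adjusted p of 0.573. Rrm2, the small subunit of ribonucleotide reductase, was at 21 and 16.7 FPKM in WT, at 29.3, 22.4 and 20.98 in KO, at 28.2 and 18.3 in KH and at 25.9 and 32.6 in DKO. Its DKO and WT libraries did not overlap, with a log2 difference of 0.61 ± 0.27 (SE) and an adjusted p of 0.367. Tyms, which makes thymidylate, was the 1 gene of the 37 whose highest library was KO replicate 2. The large subunit gene Rrm1 had the smallest ratio of the group in DKO, 1.19.

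Of the G1 and G1/S cyclins and kinases, Cdk4, the partner of the D-type cyclins, was the most abundant of the 37 genes. It was at 257 and 233 FPKM in WT, at 383, 376 and 273 in KO, at 379 and 213 in KH and at 360 and 338 in DKO. The DKO pair lay close together and above both WT libraries, with a log2 difference of 0.51 ± 0.31 (SE) and an adjusted p of 0.495. Part of Cdk4 overlaps Tspan31. Ccne1, which encodes cyclin E1, was at 2.91 and 2.11 FPKM in WT, at 5.88, 4.05 and 2.98 in KO, at 5.84 and 2.41 in KH and at 4.07 and 6.44 in DKO. Its ratio of averages, 2.09, was the largest of the 40 in DKO, with a log2 difference of 0.81 ± 0.39 (SE) and an adjusted p of 0.402. Of the D-type cyclin genes, Ccnd1 had ratios of averages to WT of 2.05 in DKO and 1.34 in KO, and Ccnd2 of 1.19 and 1.31. Their log2 differences in DKO were 0.93 ± 0.53 and 0.16 ± 0.55 (SE), the difference between the genes was not tested, and both were highest in KH replicate 1.

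The S, G2 and M cyclins and their kinase had DKO to WT ratios of 1.43 to 1.87. Cdk1, the mitotic kinase, was at 41.1 and 31.1 FPKM in WT, at 87.0, 68.5 and 44.0 in KO, at 72.3 and 31.5 in KH and at 48.1 and 75.2 in DKO. KO and DKO lay above WT without overlap, and the log2 difference was 0.74 ± 0.44 (SE) for DKO, with an adjusted p of 0.481. Ccnb2, which encodes the mitotic cyclin B2, was at 14.0 and 10.1 FPKM in WT, at 29.5, 25.6 and 15.8 in KO, at 24.9 and 12.8 in KH and at 19.2 and 25.8 in DKO. Again KO and DKO did not overlap WT. The log2 difference was 0.85 ± 0.38 (SE) for DKO and 0.89 ± 0.35 (SE) for KO, with adjusted p-values of 0.367 and 0.853 in limma.

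In the mitotic kinase, checkpoint and passenger group, all 7 averaged higher in each mutant genotype. Birc5, which encodes survivin of the chromosomal passenger complex, was at 24.2 and 14.4 FPKM in WT, at 50.9, 48.7 and 21.6 in KO, at 36.8 and 19.3 in KH and at 29.6 and 40.6 in DKO. The WT pair differed 1.68-fold, the most of the 37 genes other than the inhibitors, and the log2 difference in DKO was 0.85 ± 0.47 (SE), with an adjusted p of 0.448. Cdc20, the activator of the anaphase-promoting complex, had the smallest p of the 40 in DKO against WT. It was at 20.6 and 15.8 FPKM in WT, at 46.3, 29.5 and 22.1 in KO, at 31.1 and 20.5 in KH and at 27.4 and 40.6 in DKO, with a log2 difference of 0.85 ± 0.37 (SE) and an adjusted p of 0.355. The gene Elovl1 shares its entry. Aurka, Aurkb, Plk1, Bub1 and Bub1b had WT averages of 3.73 to 8.80 FPKM and DKO to WT ratios of 1.42 to 1.90.

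The 6 chromosome and spindle genes included Top2a, the topoisomerase that untangles sister chromosomes, and Cenpa, the histone of centromeres. Top2a was at 39.7 and 29.3 FPKM in WT, at 75.6, 68.3 and 40.3 in KO, at 57.3 and 32.2 in KH and at 54.3 and 66.2 in DKO. The log2 difference was 0.80 ± 0.36 (SE) for DKO and 0.78 ± 0.33 (SE) for KO, with adjusted p-values of 0.38 and 0.853. Cenpa was at 24.2 and 16.3 FPKM in WT, at 49.0, 39.6 and 24.8 in KO, at 36.5 and 23.2 in KH and at 30.7 and 43.2 in DKO. For both genes the KO and DKO libraries were above WT, and for Cenpa the log2 differences were 0.84 ± 0.37 (SE) and 0.84 ± 0.34 (SE) in DKO and KO, with adjusted p-values of 0.362 and 0.853. Mki67, the widely used marker of cycling cells, differed less, with a ratio of averages of 1.30 in DKO. The kinesin genes Kif11, Kif20a and Kif23 had ratios between 1.22 and 1.78.

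The 3 transcription factor genes were the least abundant group, with WT averages of 2.36 to 6.40 FPKM. Foxm1, a forkhead factor of mitotic genes, was at 7.57 and 5.24 FPKM in WT, at 13.6, 5.87 and 6.56 in KO, at 9.92 and 7.197 in KH and at 5.40 and 13.8 in DKO. Its DKO pair differed 2.55-fold and overlapped WT, and the log2 difference was 0.41 ± 0.47 (SE), with an adjusted p of 0.715. E2f1, the activating E2F factor, was at 3.26 and 2.34 FPKM in WT, at 5.71, 4.98 and 2.72 in KO, at 5.82 and 2.84 in KH and at 3.89 and 5.66 in DKO. The DKO libraries were above WT, with a log2 difference of 0.60 ± 0.37 (SE) and an adjusted p of 0.498. Mybl2, which encodes B-Myb, had a DKO to WT ratio of averages of 1.73.

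The 3 inhibitors averaged lower in DKO than in WT, with ratios of 0.86 to 0.95. For each of them the sign of the log2 difference turned under at least 1 of the alternatives described below. Within the mutant genotypes Cdkn1b and Cdkn1c were highest in KO replicate 1, KH replicate 1 and DKO replicate 2, as most of the 37 were, and Cdkn1a was highest in the other libraries. Cdkn1a, which encodes p21, was at 277 and 281 FPKM in WT, at 158, 252 and 285 in KO, at 183 and 259 in KH and at 292 and 236 in DKO. It was lowest in KO replicate 1 and next lowest in KH replicate 1, where most of the 37 were high, and the log2 difference was -0.09 ± 0.32 (SE) in DKO, with an adjusted p of 0.924. Cdkn1b, which encodes p27, was at 11.1 and 11.5 FPKM in WT, at 12.8, 7.96 and 10.6 in KO, at 13.4 and 12.6 in KH and at 9.61 and 9.90 in DKO. DKO lay under WT without overlap, by a log2 difference of -0.19 ± 0.23 (SE), with an adjusted p of 0.732. Cdkn1c, which encodes p57, was at 2.25 and 3.79 FPKM in WT, at 6.01, 3.21 and 3.08 in KO, at 4.10 and 1.75 in KH and at 2.58 and 2.83 in DKO, and the DKO pair stood between the WT pair.

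**Figure D3:**
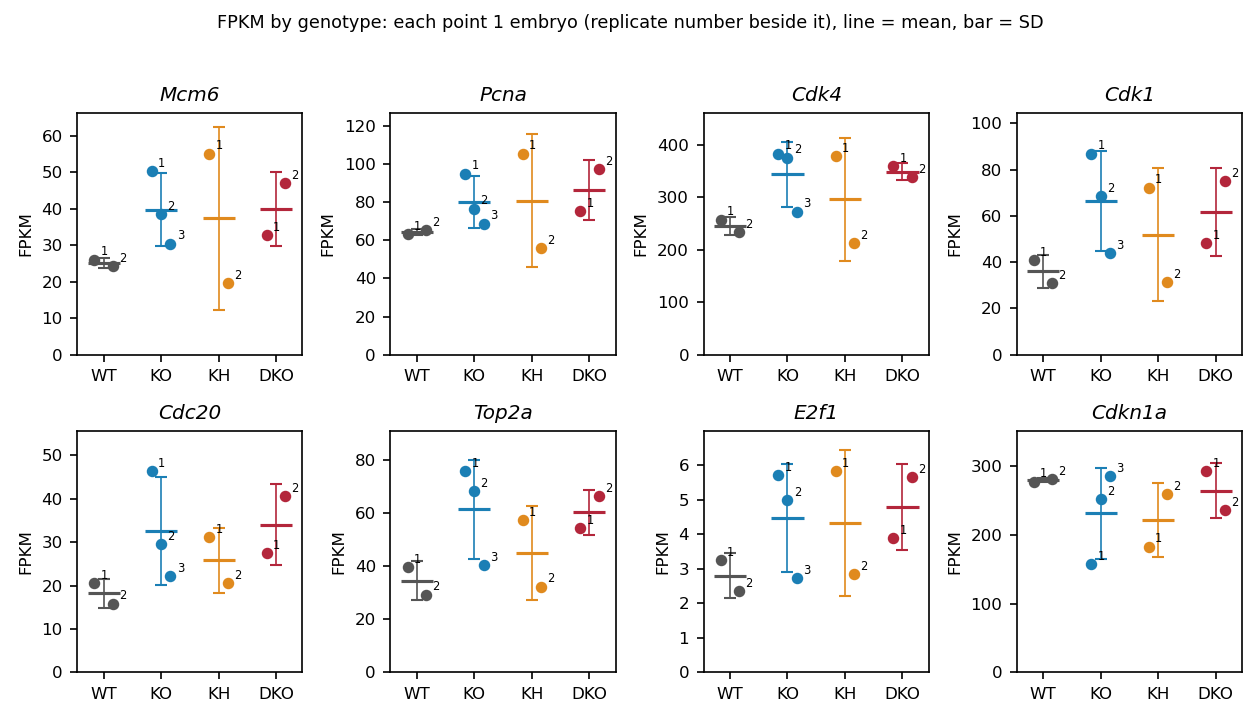
FPKM of 8 of the genes by genotype, each point 1 embryo with its replicate number, the line the mean and the bar the SD (n = 2 for WT, KH and DKO and 3 for KO). For the first 7 genes KO 1, KH 1 and DKO 2 are the highest of their genotype except for Cdk4 in DKO, and Cdkn1a is lowest in KO 1 and KH 1.

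Libraries of 1 mutant genotype differed from each other by amounts like those between mutants and WT, whose medians over the 37 genes were 0.60 for DKO, 0.49 for KO and 0.38 for KH on the log2 scale, and the WT pair differed by less. KH replicate 1 was above KH replicate 2 in 37 of the 37 genes other than the inhibitors, by a median log2 difference of 0.90, while over the 12197 genes averaging 1 FPKM or more the median was -0.02 and 48.2% were higher in replicate 1. DKO replicate 2 was above DKO replicate 1 in 36 of the 37 (46.2% of all genes), by a median of 0.61, and KO replicate 1 was above both other KO libraries in 36 of the 37 (30.4% of all genes). WT replicate 1 was above WT replicate 2 in 31, by a median of 0.33. For 29 of the 37 the ratio within KH was larger than the ratio of the DKO to the WT average. The median residual SD on the log2 scale was 0.46 for the 37 genes and 0.28 for all genes averaging 1 FPKM or more.

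KO replicate 1, KH replicate 1 and DKO replicate 2 were the 3 highest libraries in 30 of the 37, in whichever order, against 10.8% of all genes averaging 1 FPKM or more. The lowest library was WT replicate 2 in 19 and KH replicate 2 in 16. KO replicate 1, KH replicate 1 and DKO replicate 2 also had the smallest summed FPKM over all genes, at 734747, 713318 and 771857. Their shares of that sum in the 100 largest genes were the smallest too, at 47.4%, 46.5% and 47.4%. The part of this in the levels of the 37 genes was not tested. Which of the high libraries led was not the same in every role group. KH replicate 1 was the highest library for 5 of the 8 licensing and helicase genes, 2 of the 4 replication fork and nucleotide genes, 2 of the 5 G1 and G1/S genes, 1 of the 3 transcription factors and none of the 17 genes of the 3 mitotic groups, counting the S, G2 and M cyclins. KO replicate 1 exceeded KH replicate 1 in all 17 of those, and in 2, 2, 3 and 2 genes of the other groups in the same order. The median ratio of KH replicate 1 to replicate 2 was 2.90 for the licensing genes, 2.15 for the fork genes and 2.42 for the G1 and G1/S genes. It was 2.29 for the S, G2 and M cyclins, 1.80 for the mitotic kinases and 1.72 for the chromosome and spindle genes, so the groups of the first and the second wave overlapped. No difference between role groups was tested.

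**Figure D4:**
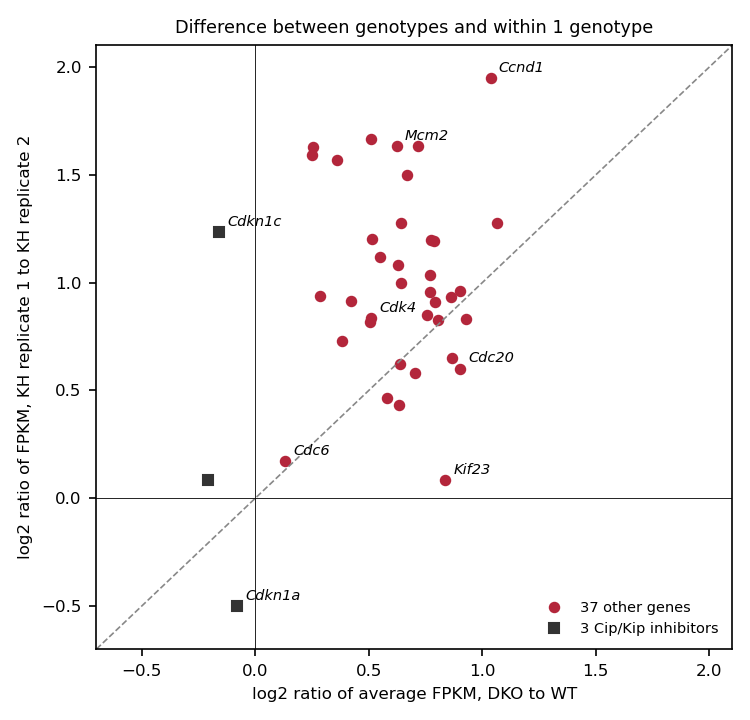
Each point is 1 of the 40 genes, with the log2 ratio of average FPKM in DKO to WT on the horizontal axis and the log2 ratio of KH replicate 1 to KH replicate 2 on the vertical axis, and the dashed line marks equal ratios. Of the 37 genes other than the inhibitors, 29 lie above the line.

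Markers of the layers of the epidermis differed between these libraries and between the mutants and WT. The 8 basal keratinocyte markers summed to 7583 FPKM in KH replicate 1 and 4142 in KH replicate 2, and all 8 were higher in replicate 1. The 7 granular and cornified markers went the other way, with 4327 and 12640 FPKM and all 7 lower in replicate 1. In DKO replicate 2 against replicate 1, 7 of the 8 basal markers were higher and 6 of the 7 granular and cornified markers lower, at 5871 and 11370 FPKM in sum. In KO replicate 1 all 7 granular and cornified markers were lower than in both other KO libraries. The 5 spinous markers, among them Krt1 and Krt10, summed to 26220 to 38250 FPKM in DKO, 28370 to 40160 in KH and 22090 to 67720 in KO, against 47180 to 61920 in WT. All 5 had a negative log2 difference from WT in DKO, KO and KH, with medians of -1.02, -0.54 and -0.82, and none was called. In DKO, KH and KO, 4, 3 and 0 of the 5 were lower without overlap, against 26.4%, 16.6% and 12.1% of all genes. All 7 granular and cornified markers also had negative differences in the 3 mutants, with medians of -0.35, -0.52 and -0.51, and none was called. Of the 8 basal markers 6 had positive differences in each mutant, with medians over the 8 of 0.35, 0.32 and 0.37, and none was called. The other 2 were Krt15 and Trp63, both lower in DKO without overlap, and Krt15 differed from WT by -1.27 in DKO, -0.69 in KO and -0.97 in KH, the largest of the list in size in DKO and KH. Without overlap, 4 of the 8 were higher and 2 lower in DKO, against 27.8% and 26.4% of all genes. In KO these counts were 3 and 1 (12.6% and 12.1%), and in KH 4 and 1 (15.3% and 16.6%). The 8 hair follicle markers summed to 71.9 FPKM in KO replicate 1, 74.9 in KH replicate 1 and 68.5 in DKO replicate 2, and to between 25.4 and 37 in the other 6 libraries. Against WT, 8, 7 and 7 of them were higher in DKO, KO and KH, with median log2 differences of 0.49, 0.41 and 0.42, and none was called. Without overlap 5, 4 and 2 were higher (27.8%, 12.6% and 15.3% of all genes) and none lower. All 6 melanocyte markers were higher in DKO than in WT without overlap (27.8% of all genes), with sums of 97.2 and 213 against 50.03 and 44.5 FPKM. In KO and KH, 5 and 4 of the 6 were higher without overlap (12.6% and 15.3% of all genes). The other 1 was lower in KO without overlap (12.1% of all genes), at a log2 difference of -0.04. All 6 were also higher in KH replicate 1 than in replicate 2, at 155 and 58.5 FPKM in sum, and in DKO replicate 2 than in replicate 1. Among cells from outside the keratinocyte lineage, the summed levels ran from 44.2 to 150 FPKM for 7 dermal fibroblast markers, from 13.5 to 71.1 for 6 immune markers and from 5.92 to 560 for 4 red blood cell markers, with the highest value in KO replicate 1, KH replicate 2 and DKO replicate 2. The fibroblast markers were higher in KH replicate 1 than in replicate 2 for 7 of the 7 (139 and 50.7 FPKM in sum), in KO replicate 1 than in both other KO libraries for 7 of the 7 (150 against 82.8 and 89.9), and in DKO replicate 2 than in replicate 1 for 5 of the 7 (75.3 and 44.2). Of these 7 markers, 3 stayed below 1 FPKM in every library, and the highest value of any 1 marker was 136 FPKM. The immune markers were lower in KH replicate 1 than in replicate 2 for 5 of the 6 and in DKO replicate 2 than in replicate 1 for 6 of the 6. Against WT, 4 of the 5 immune markers tested were higher in DKO, 5 in KO and 5 in KH. Their median log2 differences were 0.84, 0.55 and 0.80, and none was called. The part of these markers in the levels of the 40 genes was not tested, and in whole epidermis a larger share of dividing cells cannot be told apart from more RNA of these genes in each cell.

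**Figure D5:**
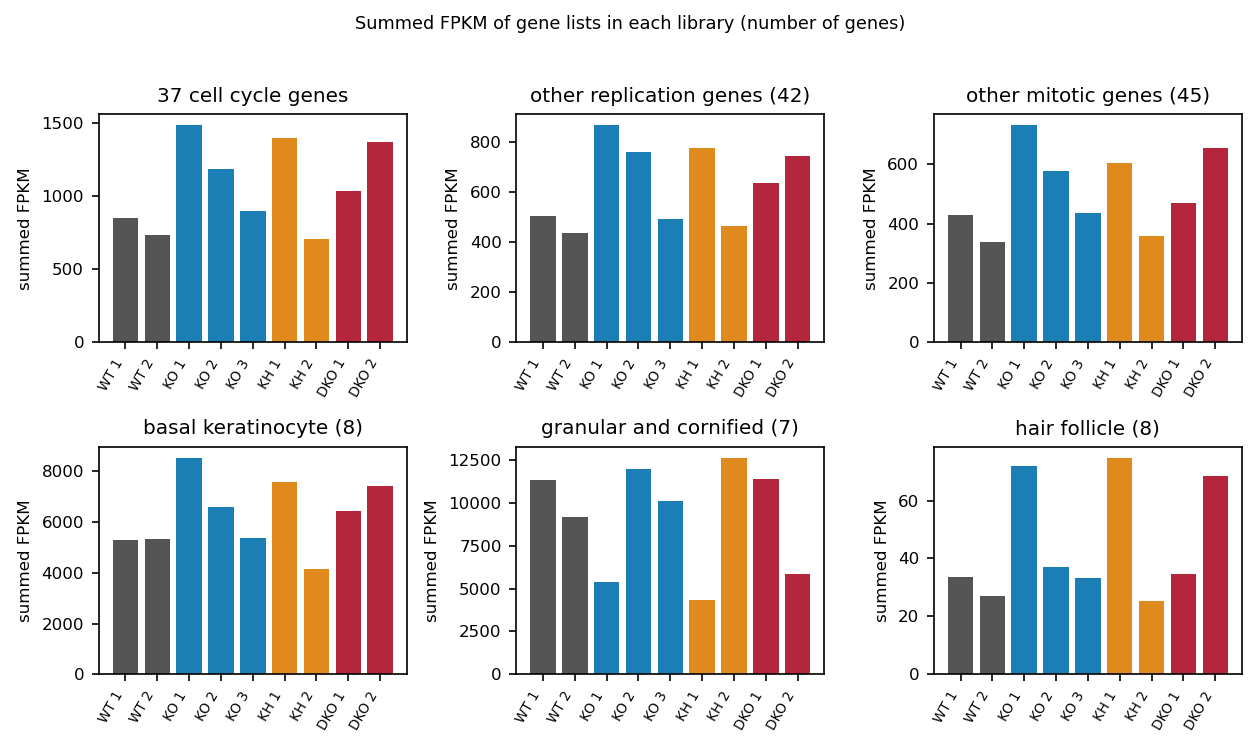
Bars give the summed FPKM of 6 gene lists in each of the 9 libraries, coloured by genotype, with the number of genes in brackets. KO 1, KH 1 and DKO 2 have the highest bars for the 37 cell cycle genes, the basal and the hair follicle markers and the lowest for the granular and cornified markers.

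Other genes of the same processes gave like counts. Of 42 other replication genes, 38 had a positive log2 difference in DKO, 39 in KO and 40 in KH, and 0 were called in any of these comparisons. The median log2 difference was 0.47, 0.52 and 0.30. Of 45 other mitotic genes, 44, 45 and 44 had a positive difference and 0 were called, with medians of 0.45, 0.50 and 0.25. The 29 other regulators of the cycle that were tested were more mixed, with 18 higher and 11 lower in DKO, 15 and 14 in KO and 21 and 8 in KH, and medians of 0.20, 0.06 and 0.13. The 15 p53 target genes, among which Cdkn1a was not counted, had 8 higher and 7 lower in DKO, 5 and 10 in KO and 6 and 9 in KH, with medians of 0.06, -0.11 and -0.05. In both lists 0 were called in these comparisons.

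A few of these genes stood apart from the rest of their list and were chosen after their values were seen. Rb1, the retinoblastoma gene that restrains E2F factors, was at 11.9 and 13.2 FPKM in WT, at 6.17, 6.68 and 9.26 in KO, at 8.46 and 9.04 in KH and at 5.24 and 5.03 in DKO. All 7 mutant libraries were below both WT libraries, by a log2 difference of -1.15 ± 0.23 (SE) in DKO, which did not pass the test with an adjusted p of 0.0785 in limma. Rb1 shares its entry with Lpar6. E2f2, an activating E2F factor, was at 9.17 and 6.26 FPKM in WT, at 6.68, 9.22 and 8.39 in KO, at 6.93 and 10.2 in KH and at 20.3 and 18.1 in DKO. The DKO pair was apart from all other libraries, with a log2 difference from WT of 1.23 ± 0.27 (SE) and an adjusted p of 0.105. Ttk, the kinase of the spindle checkpoint, was at 14.0 and 13.9 FPKM in WT, at 11.98, 15.2 and 17.4 in KO, at 11.6 and 14.6 in KH and at 7.88 and 6.49 in DKO. It was the 1 gene of the 45 other mitotic genes with a negative log2 difference in DKO, at -0.88 ± 0.23 (SE) with an adjusted p of 0.161.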

How the data were processed

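Poly A RNA of single embryos was sequenced by the authors as paired reads. Mapping was to mm10 and Ensembl genes by TopHat v1.4.1, and gene FPKM were estimated with Cuffdiff v2.2.0, and how libraries were scaled against each other is not given in the sources used here. The deposited FPKM values of all 9 libraries were used as they stand. The 4 columns of the authors' means were not used. FPKM hold no read counts, so no counting interval is given, and 10 of the 40 genes share a locus entry with another gene, from which overlapping reads may not be separated.

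Genes averaging above 0.1 FPKM in at least 1 genotype (16897) were analysed as log2(FPKM + 1), so differences of low genes are understated. A mean for each of the 4 genotypes was fitted to all 9 libraries in limma 3.58.1 (R 4.3.3), with an intensity trend, and each of the 6 comparisons was adjusted by the Benjamini-Hochberg method over all genes tested. Calls needed an adjusted p below 0.05 and average FPKM that differed over 2-fold. The script was tested on simulated data. Libraries are separate embryos, and litters are not given. The 40 genes and the lists were chosen with earlier results of these data known.

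Values in every library are given for genes called, for the most abundant gene and the gene with the smallest p in DKO against WT of each of 8 role groups, and for the 3 inhibitors. Gene positions came from GENCODE M21 and promoters from RefSeq.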

Additional observations from a re-analysis of the deposited data

How the results depend on the processing

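Over 22 alternatives for each comparison, 0 of the 40 genes were called in any of the 6 comparisons. The pseudocount was set to 0.1, the filter was dropped or raised to 1 FPKM, only the 2 genotypes were fitted, the trend in eBayes or the fold threshold was left out, and values were rescaled to TPM, by median ratios or by quantiles. ArrayWeights and a block for the replicate number were added in turn, each library was left out once, which assumes that a lone library varies like the rest, and, chosen after seeing the data, transcript length was corrected for and the block was set by the numbers in the column names. Without 1 library the median log2 difference of the 40 was 0.29 to 0.87 for DKO, 0.26 to 0.66 for KO and -0.15 to 0.77 for KH. Under the other alternatives it was 0.53 to 0.81, 0.46 to 0.88 and 0.35 to 0.51. With the replicate block the medians were 0.57, 0.66 and 0.35, and the block takes KO replicate 3 out of the KO estimate because the other genotypes have no library of that number. Libraries of the same number in the titles correlated between -0.60 and 0.49 in their deviations. The deposited columns number the libraries differently, with DKO replicates 1 and 2 as 2 and 3, KO replicate 3 as 4 and WT replicate 2 as 5. By these numbers the 3 pairs numbered 2 correlated at 0.35 to 0.57 and the 3 numbered 1 at -0.24 to 0.49. Of those numbered 1, KH with KO was at 0.49, and WT with KH and with KO at -0.24 and 0.036. Deviations were taken from the genotype mean, so those of 2 libraries of a genotype mirror each other and the correlations are not independent. They cannot decide whether libraries were paired, and neither numbering was read as pairs. With a block for the column numbers, which leaves 1 residual degree of freedom and links DKO to WT only through KO and KH, the medians were 0.81, 0.88 and 0.51, and the DKO difference was 0.164 for Cdkn1b and 0.954 for Cdkn1c, against -0.19 and -0.09 as reported. For E2f2 the DKO difference with this block was 0.61, against 1.23 as reported. The number of the 40 at an unadjusted p below 0.05 in DKO by limma, 2 as reported, was 12 with only the 2 genotypes fitted (9.23% of all genes in that direction) and 10 with arrayWeights (10.5%). It was 0 with no filter, in TPM, by quantiles, with the length correction, and when replicate 2 of WT, KO or DKO was left out, where 2.42% to 6.91% of all genes reached it. In KO, where it was 3 as reported, it ran from 0 to 10 (without KO replicate 3, 5.65% of all genes) and was 22 with the block for column numbers (4.79%). In KH it was 9 without KH replicate 2 (4.15%), 3 with the block for column numbers (2.72%) and otherwise 0. Between mutants it was 0 throughout in DKO against KO, and 4 in DKO against KH without KH replicate 1 (3.75%). In KH against KO, 6 were lower without KH replicate 1 (2.07%), 3 without KO replicate 3 (1.38%), 2 and 4 with the blocks for title and column numbers (1.08% and 1.49%), and 1 was higher without KH replicate 2 (1.05%). Leaving out 1 library, the DKO difference was -0.19 (without DKO replicate 2) to 1.01 for Foxm1, -0.24 to 0.065 (without DKO replicate 2) for Cdkn1a and -0.37 to 0.19 (without WT replicate 2) for Cdkn1c. Rb1, E2f2 and Ttk passed the adjusted threshold with arrayWeights and under no other alternative, at adjusted p-values of 0.0169, 0.0297 and 0.0401, over ranges of 0.0169 to 0.55, 0.0297 to 0.673 and 0.0401 to 0.732. With arrayWeights 556 of the 16897 genes tested were called in DKO against WT, beside 123 as reported. The cause of these changes was not tested.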
